A study of Mus musculus with 4 samples.

Results

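The 38 genes described here encode the machinery that carries a cell through G2 and mitosis. They are a fixed list of gene symbols, all 38 of which were found among the 27998 genes of the count matrix, and no measured value enters the choice. They comprise 5 cyclin and CDK genes, 8 mitotic kinases, 3 genes of the mitotic ubiquitin ligase and the chromosomal passenger complex, 6 kinetochore and centromere genes, 12 spindle and cytokinesis genes and 4 genes of chromosome structure. Earlier results from these libraries were known when the list was drawn up.

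The genes were followed in sorted cells of the mouse mammary gland, profiled in droplets by single-cell RNA sequencing of transcript 3′ ends, where each captured molecule is counted by its unique molecular identifier (UMI). The series compared the cells of control and Zeb1 MSKO mice of the C57BL/B6 strain. Of the 4 libraries 2 were from mice 8 weeks old and 2 from mice 9 weeks old, and each age had 1 library of each genotype (n = 2 per genotype). The labels do not expand MSKO, do not name the cells in which Zeb1 was deleted or the part of the gene removed, give no agent that any group received, and do not give the gate of the cell sort. Nothing in them states that each library is a separate animal, and the p-values below therefore cover the variation among libraries only, which may be technical. Zeb1 itself, a transcription factor of the zinc-finger and homeodomain type, had between 0 and 32 UMIs per library in each epithelial cell type. Its counts in control and Zeb1 MSKO libraries at 8 weeks, then at 9 weeks, were 3, 13, 0 and 4 in basal, 11, 11, 3 and 32 in luminal progenitor and 8, 6, 5 and 4 in hormone-sensing luminal cells. Because the counts come from 3′ ends and the deleted part is not stated, they do not check the genotype labels.

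Cells enter mitosis when CDK1, bound to cyclin B and its small subunit CKS, is released from inhibition, and leave it when the anaphase-promoting complex with its activator CDC20 marks cyclin B for destruction. Many genes of this machinery are transcribed together late in the cell cycle under the control of B-MYB and FOXM1 complexes. These act at promoters that carry a cell cycle genes homology region (CHR) and CCAAT boxes bound by NF-Y. In the mammary epithelium the outer basal layer is contractile, luminal progenitors line the ducts as the precursors of milk-producing cells, and hormone-sensing luminal cells carry the estrogen and progesterone receptors and are known to divide rarely.

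The promoters are shown as a description, and a link between their motifs and the level of any gene was not tested. RefSeq promoter windows (GRCm38.p6) matched 31 of the 38 genes by symbol, in 32 windows. The 250 bases before each start were searched on both strands for the CHR core, taken as TTTGAA or TTCGAA, and for CCAAT. The CHR core was found in 12 of 32 windows (37.5%), against 17.1% of all 32851 windows of that length. CCAAT was found in 24 of 32 (75%, against 33.8%), at least 2 copies of CCAAT in 16 (50%, against 10.1%), and both motifs in 11 (34.4%, against 6.02%). The 30 S phase genes used for comparison had 25 windows, of which 4 (16%) held the CHR core, 15 (60%) CCAAT and 3 (12%) both. Of the 43 windows of 51 other regulators of G2 and mitosis 17 (39.5%) held the CHR core, 28 (65.1%) CCAAT and 15 (34.9%) both, close to the shares of the 38 genes. A match is a description of the letters and not a measured binding site. The 120 bases before the start are printed for 4 genes that hold both motifs there and for Aurka, one of 2 genes called higher in hormone-sensing cells. The window of Aurka holds CCAAT but no CHR core, and that of the other, Kif2c, holds a CHR core but no CCAAT. The Kif2c window, chr4:117178723-117179022, lies inside the annotated gene (117159639 to 117182639). CCAAT without a CHR core was also found in windows of genes not called higher in hormone-sensing cells, such as Cenpa, Plk1 and Ccnb1. Capitals mark CCAAT or its reverse complement ATTGG, and the CHR core TTTGAA or its reverse complement TTCAAA. The form TTCGAA, which reads the same on both strands, is marked likewise. Positions are chr2:129297213-129297332 (minus strand) for Ckap2l, chr2:172370571-172370690 (minus) for Aurka, chr8:57511723-57511842 (plus) for Hmgb2, chr11:99024190-99024309 (minus) for Top2a and chr19:37376262-37376381 (plus) for Kif11.
Top2a: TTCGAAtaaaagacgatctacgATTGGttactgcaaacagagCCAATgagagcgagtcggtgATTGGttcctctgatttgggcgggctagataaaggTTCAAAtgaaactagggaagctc
Hmgb2: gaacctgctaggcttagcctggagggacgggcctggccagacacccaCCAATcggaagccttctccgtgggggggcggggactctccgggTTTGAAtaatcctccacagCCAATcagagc
Ckap2l: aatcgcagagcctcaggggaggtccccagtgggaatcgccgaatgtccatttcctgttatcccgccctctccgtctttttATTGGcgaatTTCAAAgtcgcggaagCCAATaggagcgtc
Kif11: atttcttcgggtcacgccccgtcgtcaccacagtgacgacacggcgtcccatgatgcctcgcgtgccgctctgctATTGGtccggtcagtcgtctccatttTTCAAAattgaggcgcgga
Aurka: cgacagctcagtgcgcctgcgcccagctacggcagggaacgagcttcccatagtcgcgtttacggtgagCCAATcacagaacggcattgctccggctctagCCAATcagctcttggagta
In Hmgb2 and Ckap2l the CHR core starts 30 bases before the annotated start, with a CCAAT box on each side of it. Top2a, the topoisomerase that untangles sister chromatids, has 3 CCAAT boxes between 2 CHR cores. Kif11, the kinesin that pushes spindle poles apart, has 1 of each. Aurka has 2 CCAAT boxes.

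The libraries held 9790, 9693, 7627 and 9774 barcodes and 103331868, 80853204, 87797283 and 122122443 UMIs. Here and below, values are in the order control and Zeb1 MSKO at 8 weeks, then control and Zeb1 MSKO at 9 weeks. The median barcode had 9403, 6376, 10214 and 10529.5 UMIs, and 34411 cells passed the filters. Marker genes gated 10822 basal, 11098 luminal progenitor and 9109 hormone-sensing luminal cells (31029 in all), together with 902 fibroblasts, 700 endothelial cells, 148 leukocytes and 232 hair follicle keratinocytes. The gates used no gene of the 38, and 52, 86 and 67 cells of the epithelial types lay within 25% above their gate's lower limit. Libraries stood apart in several ways. Of the 232 hair follicle keratinocytes 229 were in the 8-week Zeb1 MSKO library, fibroblasts and endothelial cells came almost entirely from 8 weeks, and most clusters of luminal cells held mainly 1 library. Basal markers (10 genes) summed to 91.9, 371, 148 and 187 CPM (UMIs scaled to a total of 1000000 per type and library) in luminal progenitor cells and to 75.6, 372, 136 and 126 CPM in hormone-sensing cells, highest in the 8-week Zeb1 MSKO library in both. The general luminal markers (4 genes) summed to 25266, 26639, 25789 and 14163 CPM in hormone-sensing cells, lowest in the 9-week Zeb1 MSKO library. Pairs of libraries shared 95 to 151 barcodes.

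**Figure D1:**
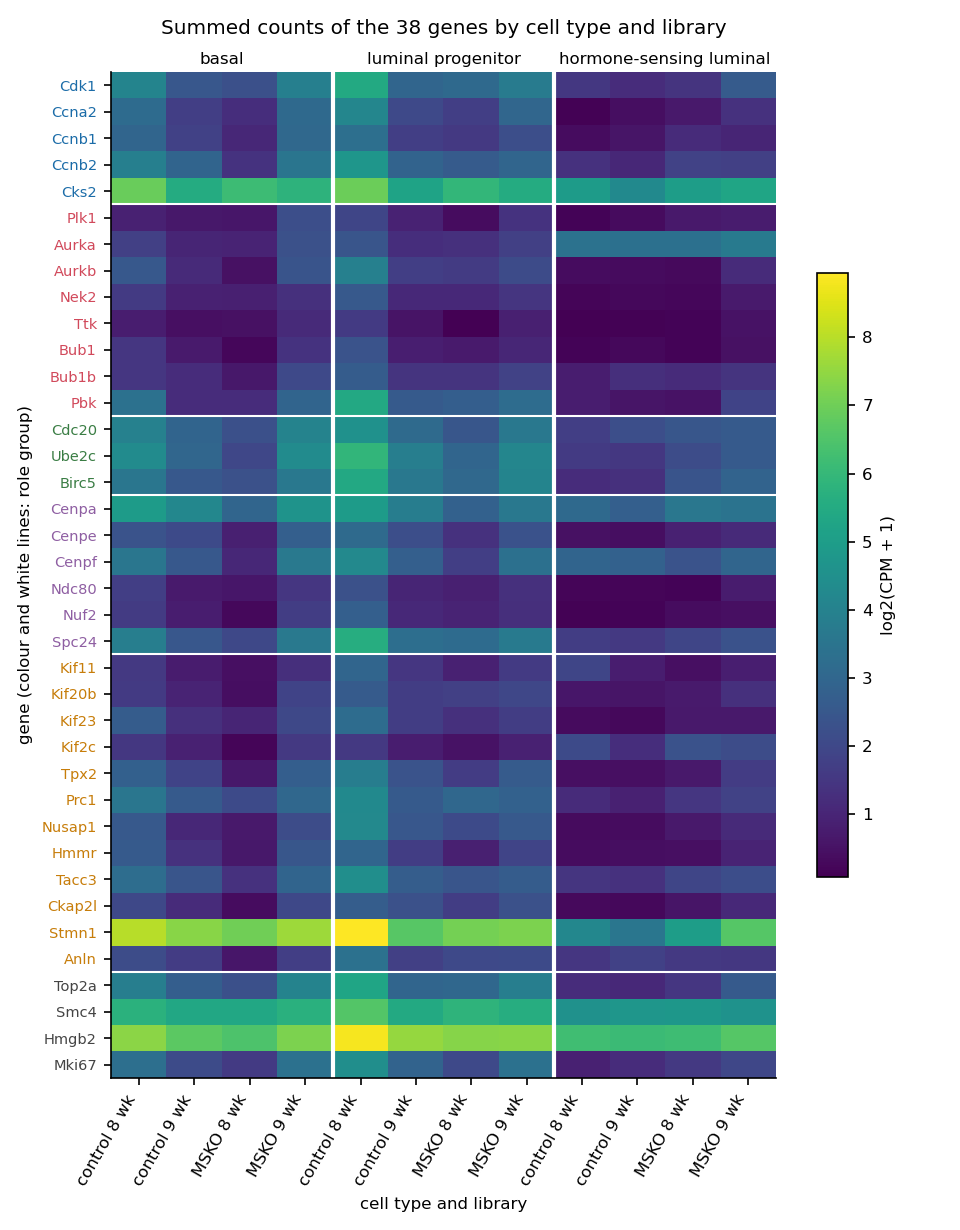
Heat map of the level of each of the 38 genes (rows, grouped by role) in each library of basal, luminal progenitor and hormone-sensing luminal cells (columns), coloured by log2(CPM + 1), where CPM is UMIs scaled to a total of 1000000 per cell type and library. The 8-week control library has the highest luminal progenitor level for all 38 genes.

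A cell was counted as being in G2 or mitosis when at least 3 of 33 genes were detected after thinning it to 2500 UMIs. The 5 genes left out, Hmgb2, Stmn1, Smc4, Cks2 and Tacc3, were taken to be transcribed outside this phase as well. Such cells gave 47.2%, 4.27%, 27.0% and 50.5% of the summed UMIs of the 38 genes in basal, 67.6%, 24.8%, 43.7% and 50.4% in luminal progenitor and 3.33%, 11.8%, 12.4% and 22.1% in hormone-sensing cells, so that in 9 of these 12 sums most UMIs came from other cells. For each gene the cells were chosen by the other genes alone. In luminal progenitor cells Ube2c, the ubiquitin-conjugating enzyme of the anaphase-promoting complex, stood at 470 CPM in such cells and 1.49 CPM in the remaining cells, so that 95.3% of its UMIs came from cells in G2 or mitosis. The corresponding levels were 142 and 0.507 CPM for Nusap1, a protein that bundles spindle microtubules, and 59.2 and 0.155 CPM for Hmmr, a spindle pole protein. Mki67, which coats mitotic chromosomes and is the standard proliferation marker, was at 173 against 1.76 CPM. Of the 5 genes left out of the count, Tacc3 had 119 and 3.71 CPM and 68.0% of its UMIs in the counted cells. That is near the shares of Anln (69.4%) and Prc1 (69.2%), which were kept in the count. The other 4 genes left out are given next. Stmn1, which destabilises microtubules, was at 2265 and 122 CPM, and 55.1% of its UMIs in luminal progenitor cells came from cells in G2 or mitosis. For Cks2, the CDK subunit, this share was 32.7%, for the condensin subunit Smc4 39.2% and for the chromatin protein Hmgb2 45.6%.

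In hormone-sensing cells a smaller share of each gene's UMIs came from counted cells than in luminal progenitor cells. The share was 37.5% against 86.2% for Mki67, 40.9% against 75.8% for Cdk1 and 65.0% against 92.4% for Ccnb1. Some genes also stood higher in uncounted hormone-sensing cells than in uncounted cells of the other types. Aurka, the kinase that matures centrosomes and spindle poles, stood at 30.8 CPM in hormone-sensing cells in G2 or mitosis and at 10.2 CPM in all others, and 2.27% of its UMIs there came from the counted cells, against 69.7% in luminal progenitor cells. Outside G2 and mitosis it was at 0.870 CPM in luminal progenitor and 0.869 CPM in basal cells. Kif2c, a kinesin that removes tubulin from microtubule ends at kinetochores, was at 2.77 CPM in the uncounted hormone-sensing cells, against 0.145 and 0.137 CPM in luminal progenitor and basal cells. Aurka lies on mm10 chromosome 2 at 172356190 to 172370535 and Kif2c on chromosome 4 at 117159639 to 117182639, both on the minus strand, and neither overlaps another annotated gene on either strand. Of the 38 genes 10 overlap another annotated gene on the same strand, mostly a small RNA, and 13 on the opposite strand, where the assignment of UMIs is less certain. Cenpf, a kinetochore protein, was at 5.45 CPM in uncounted hormone-sensing cells and 2.68 CPM in uncounted luminal progenitor cells. Ube2c by contrast was at 279 and 1.29 CPM inside and outside the counted hormone-sensing cells. These are values pooled over the libraries and carry no test. Kif2c and Cenpf were singled out after their values were seen.

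**Figure D2:**
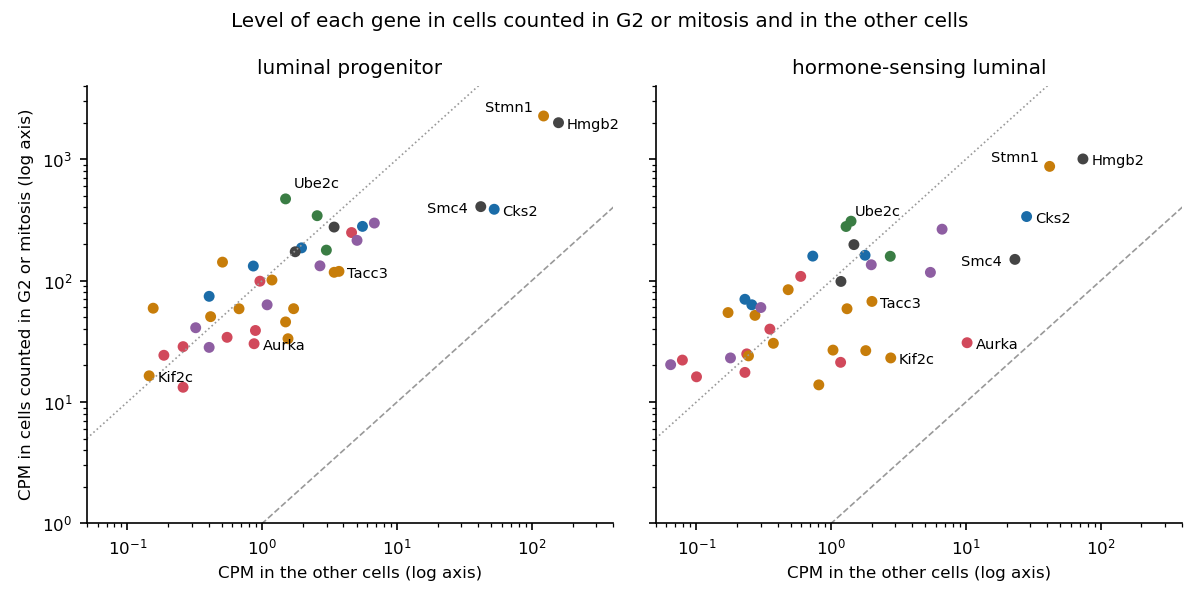
Level of each of the 38 genes (CPM, both axes logarithmic) in cells counted in G2 or mitosis by the other genes (vertical) against the remaining cells of the same type (horizontal), for luminal progenitor and hormone-sensing cells, with points coloured by role, equality as a dashed line and a ratio of 100 as a dotted line. Aurka stands at 30.8 CPM inside and 10.2 CPM outside the counted hormone-sensing cells, the smallest gap of the genes plotted for that type.

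Summed over the 38 genes, basal cells held 846, 377, 460 and 684 CPM, luminal progenitor cells 1747, 518, 510 and 602 CPM and hormone-sensing cells 196, 229, 171 and 352 CPM. Sums over a cell type cannot tell apart fewer expressing cells from less RNA per cell. The 5 genes left out of the count of cells (Hmgb2, Stmn1, Smc4, Cks2 and Tacc3) made up 66.5% to 86.9% of these sums. The 8-week control library was the highest of the 4 in luminal progenitor cells, and the 9-week Zeb1 MSKO library was the highest in hormone-sensing cells. Outside the epithelium the sum was 2629 to 3410 CPM in leukocytes, 7208 CPM in the hair follicle keratinocytes of the 8-week Zeb1 MSKO library (8544 CPM in the 3 such cells of its control), and 89.1 to 181 CPM in fibroblasts. A 3′ count gives about 1 UMI per captured transcript whatever the transcript's length, so length alone does not set the levels of different genes apart. Whether transcripts of all 38 genes are captured equally well was not tested. A mean of at least 1 CPM was reached by 37 genes in basal, 36 in luminal progenitor and 22 in hormone-sensing cells.

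Luminal progenitor cells were compared with basal cells across the 4 libraries with the library as a block. Of the 38 genes 13 were higher in luminal progenitor cells and 0 lower, where 30.3% of all 13088 genes tested were higher and 32.9% lower, so the share of higher genes was near that of all genes. The median log2 difference was 0.53 over the 38 genes and -0.014 over all genes. By role, the higher genes were 6 of 12 spindle and cytokinesis genes, 2 of 3 ubiquitin ligase and passenger genes, 2 of 4 chromosome genes, and 1 each of the 5 cyclin and CDK, 8 kinase and 6 kinetochore genes. The calls rest on the block. With no block 0 were called (45.1% of all genes), and without the 8-week control library 8 were (7 higher and 1 lower, against 55.7% of all genes called), without the 9-week control library 8 (53%), and without the 9-week Zeb1 MSKO library 20 (57.5%). In the 9-week Zeb1 MSKO library 25 of the 38 genes were highest in basal cells, whereas luminal progenitor cells were the highest type for 36, 31 and 29 genes in the other libraries.

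By CPM hormone-sensing cells were the lowest type for 35, 32 and 36 of the 38 genes in the 8-week control, 9-week control and 9-week Zeb1 MSKO libraries. By UMIs per cell they were lowest for 34, 30 and 24. In the 8-week Zeb1 MSKO library they were lowest for 18 and basal cells for 17 (by UMIs per cell 4 and 32). Summed UMIs per cell in the 9-week Zeb1 MSKO library were 6.13 in hormone-sensing, 6.03 in basal and 5.38 in luminal progenitor cells. Uncounted cells there had medians of 17139, 7772 and 7442.5 UMIs in the same order, and a higher total lowers CPM. Against basal cells 27 of the 35 genes that passed the filter on low counts were lower and 2 higher, where 34.8% of all 13231 genes tested were lower and 32.7% higher (median log2 difference -1.80 over the 35 genes, -0.029 over all genes). Against luminal progenitor cells 31 of 38 genes were lower in hormone-sensing cells and 2 higher. Of all 13055 genes tested in that comparison 28.1% were higher in luminal progenitor and 28.6% higher in hormone-sensing cells, with a median log2 difference (luminal progenitor minus hormone-sensing) of 2.38 over the 38 genes and 0.0045 over all genes. The 2 genes higher in hormone-sensing cells were the same in both comparisons, Aurka and Kif2c. The filter removed Nuf2, Bub1 and Ttk from the comparison with basal cells.

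Among the cyclin and CDK genes, Cdk1, the kinase that drives entry into mitosis, was at 16.1, 3.72, 4.57 and 14.0 CPM in basal, 43.5, 7.69, 6.91 and 12.6 CPM in luminal progenitor and 1.84, 1.64, 1.32 and 5.21 CPM in hormone-sensing cells. The hormone-sensing values were the lowest in every library, and the luminal progenitor values were above the basal ones except in the 9-week Zeb1 MSKO library. Cdk1 was higher in luminal progenitor than in basal cells (log2 difference 0.68, SE 0.24, edgeR adjusted p = 0.0362) and in hormone-sensing cells (log2 difference 2.56, SE 0.52, edgeR adjusted p = 0.00416), and lower in hormone-sensing than in basal cells (-1.90, SE 0.35, 0.00135). Ccnb1, the B-type cyclin that activates CDK1, was at 6.84, 1.12, 2.50 and 7.40 CPM in basal, 8.97, 1.90, 2.32 and 3.60 CPM in luminal progenitor and 0.288, 1.27, 0.486 and 1.01 CPM in hormone-sensing cells. Ccnb1 was lowest in hormone-sensing cells except in the 8-week Zeb1 MSKO library, where the basal value was lower still. Cks2 had the highest mean of this group, with 119, 70.5, 45.3 and 55.6 CPM in basal, 124, 60.1, 36.3 and 45.7 CPM in luminal progenitor and 29.8, 31.6, 18.6 and 38.3 CPM in hormone-sensing cells. Its hormone-sensing values were below its basal values in every library (log2 difference -1.25, SE 0.25, edgeR adjusted p = 0.00213), whereas luminal progenitor values lay on both sides of the basal ones.

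Among the mitotic kinases, Pbk, a mitogen-activated protein kinase kinase-like kinase active in mitosis, had the highest mean. It was at 9.48, 1.30, 1.33 and 6.66 CPM in basal, 42.1, 5.64, 4.96 and 8.33 CPM in luminal progenitor and 0.749, 0.424, 0.515 and 2.61 CPM in hormone-sensing cells, and luminal progenitor cells were the highest in every library (log2 difference 1.52, SE 0.30, edgeR adjusted p = 0.00283 against basal cells, 3.48, SE 0.66, 0.00291 against hormone-sensing cells). Aurkb, the kinase of the chromosomal passenger complex, was at 4.74, 0.397, 1.22 and 4.19 CPM in basal, 14.3, 2.05, 2.32 and 3.35 CPM in luminal progenitor and 0.288, 0.243, 0.257 and 1.25 CPM in hormone-sensing cells, the lowest in every library (log2 difference -2.32, SE 0.52, edgeR adjusted p = 0.00399 for hormone-sensing minus basal). Aurka was highest in hormone-sensing cells, with 9.68, 9.15, 9.09 and 11.9 CPM there against 2.37, 0.939, 1.01 and 3.82 CPM in basal and 4.31, 1.46, 1.34 and 2.35 CPM in luminal progenitor cells. The hormone-sensing value of Aurka was above both other types in each of the 4 libraries, and no hormone-sensing value overlapped theirs (log2 difference 2.46, SE 0.31, edgeR adjusted p = 0.000156 against basal cells). Luminal progenitor minus hormone-sensing gave -2.19 (SE 0.30, edgeR adjusted p = 0.000572). The Aurka call held in each alternative processing tried, with differences from basal cells between 2.21 and 2.78. Hormone-sensing cells were thus the highest type for Aurka and the lowest for Aurkb in every library, whereas luminal progenitor and basal cells had the same order for both kinases.

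Among the ubiquitin ligase and passenger genes, Ube2c was at 19.6, 2.92, 7.12 and 19.5 CPM in basal, 59.8, 6.81, 13.6 and 16.8 CPM in luminal progenitor and 1.99, 3.40, 1.89 and 5.05 CPM in hormone-sensing cells. Birc5, survivin, which anchors the passenger complex at centromeres, was at 10.7, 3.83, 4.78 and 11.2 CPM in basal, 42.5, 7.47, 11.5 and 16.0 CPM in luminal progenitor and 1.33, 4.18, 1.46 and 6.39 CPM in hormone-sensing cells. Birc5 in luminal progenitor cells was above basal cells in every library (log2 difference 1.14, SE 0.22, edgeR adjusted p = 0.00271), and Ube2c in all but the 9-week Zeb1 MSKO library (log2 difference 0.82, SE 0.26, edgeR adjusted p = 0.0267). In the 8-week Zeb1 MSKO library hormone-sensing cells were above basal cells for both genes. Cdc20, the activator of the anaphase-promoting complex, was among the 27 lower in hormone-sensing than in basal cells together with Ube2c and Birc5.

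Of the kinetochore and centromere genes, Cenpa, the histone that marks centromeres, had the highest mean, with 29.6, 6.90, 17.0 and 23.9 CPM in basal, 29.9, 6.15, 13.4 and 11.4 CPM in luminal progenitor and 7.67, 11.2, 5.72 and 10.1 CPM in hormone-sensing cells. Cenpa was lower in luminal progenitor than in basal cells in 3 of 4 libraries, and the difference narrowly missed the threshold (log2 difference -0.44, SE 0.17, edgeR adjusted p = 0.05004). Spc24, a subunit of the NDC80 complex that holds microtubules, was at 13.8, 3.03, 4.62 and 11.8 CPM in basal and 48.1, 7.98, 8.70 and 12.3 CPM in luminal progenitor cells, higher in the latter in every library (log2 difference 0.99, SE 0.26, edgeR adjusted p = 0.0105). Of the 5 genes of this group tested between hormone-sensing and basal cells, 4 were lower, and Cenpf was not called (log2 difference 0.08, SE 0.40, edgeR adjusted p = 0.872). Cenpf was at 10.8, 1.08, 4.78 and 11.5 CPM in basal, 18.1, 2.27, 5.78 and 9.11 CPM in luminal progenitor and 6.71, 4.12, 6.12 and 6.79 CPM in hormone-sensing cells. In the hormone-sensing libraries it varied less than in the others.

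The means of the spindle and cytokinesis genes over types and libraries ranged from 1.72 CPM (Kif11) to 147 CPM (Stmn1). Stmn1 was at 254, 128, 165 and 198 CPM in basal, 491, 134, 97.9 and 144 CPM in luminal progenitor and 17.0, 31.3, 10.7 and 97.1 CPM in hormone-sensing cells, the lowest type in every library (log2 difference -2.75, SE 0.53, edgeR adjusted p = 0.00181 against basal cells). Nusap1 was at 4.88, 0.614, 1.12 and 3.40 CPM in basal and 17.8, 3.22, 4.64 and 4.95 CPM in luminal progenitor cells, higher in the latter in every library (log2 difference 1.57, SE 0.28, edgeR adjusted p = 0.00163). Kif11 was at 1.96, 0.361, 0.690 and 1.40 CPM in basal, 6.79, 0.879, 1.79 and 1.99 CPM in luminal progenitor and 2.85, 0.364, 0.715 and 0.789 CPM in hormone-sensing cells. Kif11 was higher in luminal progenitor than in basal cells (log2 difference 1.20, SE 0.26, edgeR adjusted p = 0.00483), and its hormone-sensing value in the 8-week control library was 2.85 CPM where the other libraries had at most 0.789 CPM. Ckap2l, a spindle protein, was at 3.05, 0.289, 1.27 and 3.03 CPM in basal, 5.43, 2.20, 3.82 and 3.88 CPM in luminal progenitor and 0.231, 0.485, 0.200 and 1.14 CPM in hormone-sensing cells, highest in luminal progenitor cells in every library (log2 difference 1.15, SE 0.34, edgeR adjusted p = 0.0182 against basal and 3.04, SE 0.53, 0.00201 against hormone-sensing cells).

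Further genes of this group were called between 2 of the types. Kif20b, a kinesin of late cytokinesis, was at 2.03, 0.325, 0.956 and 2.65 CPM in basal and 5.18, 2.42, 2.20 and 2.95 CPM in luminal progenitor cells (log2 difference 1.18, SE 0.36, edgeR adjusted p = 0.0218). Prc1, which bundles antiparallel microtubules of the midzone, was at 10.8, 3.18, 5.05 and 7.22 CPM in basal and 1.24, 1.82, 0.858 and 2.57 CPM in hormone-sensing cells (log2 difference -2.00, SE 0.39, edgeR adjusted p = 0.00207). Basal values were above hormone-sensing values in every library for Prc1, and the groups of libraries did not overlap. Hmmr was at 5.01, 0.578, 1.54 and 4.42 CPM in basal and 0.288, 0.364, 0.315 and 0.936 CPM in hormone-sensing cells (log2 difference -2.46, SE 0.50, edgeR adjusted p = 0.00258). Kif23, a kinesin of the central spindle, was at 5.28, 0.975, 1.49 and 3.03 CPM in basal and 0.259, 0.606, 0.200 and 0.624 CPM in hormone-sensing cells (log2 difference -2.57, SE 0.55, edgeR adjusted p = 0.00321). Both were lower in hormone-sensing cells of every library. Kif2c was at 3.20, 3.94, 1.37 and 3.43 CPM in hormone-sensing, 1.83, 0.144, 0.850 and 1.96 CPM in basal and 1.94, 0.439, 0.732 and 0.854 CPM in luminal progenitor cells. The hormone-sensing value of Kif2c was the highest type in each library, and the gap to basal cells was widest in the 8-week Zeb1 MSKO library and narrowest in the 9-week control library. Its call against basal cells was marginal (log2 difference 1.46, SE 0.57, edgeR adjusted p = 0.0490) and was lost without the 8-week control library (adjusted p = 0.0596), without the 9-week control library (0.0614), without the 9-week Zeb1 MSKO library (0.0628), with clusters in place of gates (0.0732) and with no block (0.0909).

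Among the genes of chromosome structure, Mki67 was at 9.01, 2.02, 3.35 and 9.45 CPM in basal, 20.8, 3.08, 6.55 and 9.58 CPM in luminal progenitor and 0.865, 1.94, 1.32 and 2.86 CPM in hormone-sensing cells. It was higher in luminal progenitor than in basal cells (log2 difference 0.65, SE 0.20, edgeR adjusted p = 0.0230), although both types were nearly level in the 9-week Zeb1 MSKO library. Top2a was at 13.8, 3.72, 5.63 and 15.7 CPM in basal, 38.3, 7.18, 6.91 and 13.5 CPM in luminal progenitor and 1.30, 1.82, 1.14 and 5.09 CPM in hormone-sensing cells (log2 difference -2.10, SE 0.38, edgeR adjusted p = 0.00131 for hormone-sensing minus basal). Hmgb2 was at 169, 86.5, 104 and 145 CPM in basal, 451, 161, 185 and 166 CPM in luminal progenitor and 72.9, 72.3, 68.4 and 96.4 CPM in hormone-sensing cells, and luminal progenitor cells were the highest in every library (log2 difference 0.79, SE 0.17, edgeR adjusted p = 0.00385 against basal cells). Smc4 was even across basal libraries at 52.3, 41.0, 41.5 and 50.7 CPM and across hormone-sensing libraries at 22.4, 26.4, 25.7 and 23.3 CPM, with no overlap between the types (log2 difference -0.93, SE 0.15, edgeR adjusted p = 0.000770). All 4 genes of this group were lower in hormone-sensing cells than in either other type.

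Between genotypes no gene of the 38 passed the adjusted threshold in any epithelial type, and no gene of all those tested did (0% of 12894 in basal, 0% of 12790 in luminal progenitor and 0% of 13044 in hormone-sensing cells). The edgeR adjusted p-values of the 38 genes were at least 0.9996. At an unadjusted p under 0.05 edgeR had 0 of 38 genes in basal cells (0.434% of all genes), 2 of 38 in luminal progenitor cells (1.42%) and 13 of the 34 tested in hormone-sensing cells (3.49%), after Bub1, Ndc80, Nek2 and Ttk had been filtered out for low counts. DESeq2 called 0, 0 and 2 of the genes (0.016%, 0.0381% and 0.19% of all genes). With age as a block 0, 0 and 0 of the genes were called (0%, 0% and 0.00767% of all genes). When low-count genes were left in, 9 genes passed edgeR's threshold in luminal progenitor cells, all lower in Zeb1 MSKO, as were 0.234% of all genes. The median log2 fold change (Zeb1 MSKO over control) was -0.38 over the 38 genes in basal cells, -1.13 in luminal progenitor cells and 1.19 over the 34 genes in hormone-sensing cells, against 0.029, -0.0044 and 0.015 over all genes. The hormone-sensing median leaned on 1 library. It was 0.71 over 33 genes without the 9-week Zeb1 MSKO library, and 1.21 to 1.48 over 38 genes when any other library was left out.

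**Figure D3:**
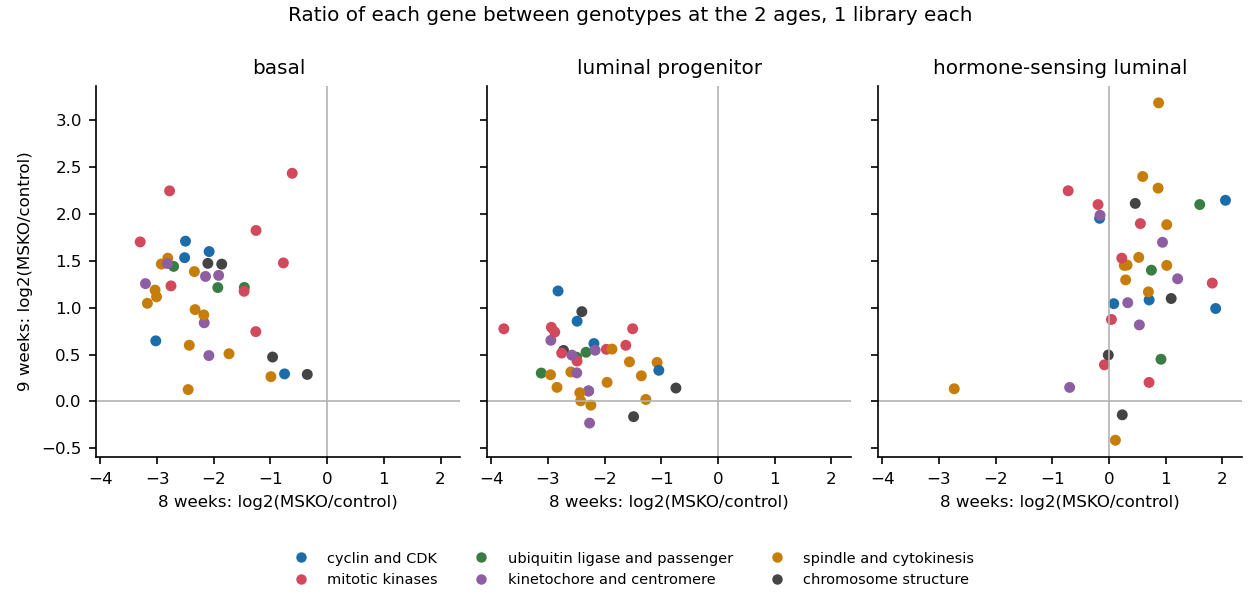
Log2 ratio of Zeb1 MSKO to control for each of the 38 genes at 8 weeks (horizontal axis) and at 9 weeks (vertical axis) in each epithelial type. In basal cells all 38 genes are below 0 at 8 weeks and above 0 at 9 weeks.

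The 2 ages gave opposite signs in basal and luminal progenitor cells. In basal cells all 38 genes were lower in Zeb1 MSKO at 8 weeks (median log2 ratio -2.17) and all 38 were higher at 9 weeks (median 1.22). In luminal progenitor cells all 38 were lower at 8 weeks (median -2.37) and 35 were higher at 9 weeks (median 0.43). In hormone-sensing cells 30 of 38 were higher at 8 weeks (median 0.53) and 36 at 9 weeks (median 1.35), 28 of them at both. Each age has 1 library per genotype, so these ratios have no replicate check, and age cannot be told apart from preparation. Some positions in the order of the libraries were shared by most genes and others were not. In luminal progenitor cells the 8-week control library was the highest for all 38 genes, the lowest was the 8-week Zeb1 MSKO library for 26 and the 9-week control library for 12, and without it 23 of the 38 log2 fold changes were positive, with a median of 0.10. In basal cells the 8-week Zeb1 MSKO library was the lowest for 36 genes, and the highest was the 8-week control library for 24 genes and the 9-week Zeb1 MSKO library for 14. The basal median was 0.50 without the 8-week control library and 0.37 without the 8-week Zeb1 MSKO library.

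Both Zeb1 MSKO libraries lay above both controls for 25 of the 38 genes in hormone-sensing cells, and for 13 of the 22 genes at a mean of 1 CPM or more, where 10.9% of all genes at that level did so. In basal and luminal progenitor cells this held for 0 of the 38 genes, against 8.6% and 13.7% of all genes. Both Zeb1 MSKO libraries lay below both controls for 3 genes in luminal progenitor cells, Cenpa, Tacc3 and Hmgb2, against 7.4% of all genes, and for 0 in basal (4.82%) and hormone-sensing cells (17.7%).

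In hormone-sensing cells the smallest unadjusted p belonged to Birc5, which was at 1.39 ± 0.0940 CPM for controls and 5.29 ± 1.56 CPM for Zeb1 MSKO (SD, 2 libraries each). Its 2 Zeb1 MSKO values, 4.18 and 6.39 CPM, lay above its control values, 1.33 and 1.46 CPM (log2 fold change 1.98, SE 0.40, DESeq2 adjusted p = 0.0485). Stmn1 was at 13.8 ± 4.48 CPM for controls and 64.2 ± 46.5 CPM for Zeb1 MSKO (SD, 2 libraries each), and its value of 97.1 CPM in the 9-week Zeb1 MSKO library stood above the other 3 libraries, which ranged from 10.7 to 31.3 CPM (log2 fold change 2.28, SE 0.60, DESeq2 adjusted p = 0.0475). Ube2c was at 1.94 ± 0.0714 CPM for controls and 4.22 ± 1.17 CPM for Zeb1 MSKO (SD, 2 libraries each), again with no overlap (log2 fold change 1.18, SE 0.39, DESeq2 adjusted p = 0.94). The difference in Stmn1 was 1.19 without the 9-week Zeb1 MSKO library. In the same cells that library had the lowest sum of general luminal markers and the 8-week Zeb1 MSKO library the highest sum of basal markers, as given above, hair follicle markers (4 genes) summed to 0, 16.5, 0.0286 and 0.0551 CPM, and of the 9 hormone-sensing markers the sum was 13088, 11393, 9153 and 7473 CPM. Their part in the difference was not tested. Cells of this type also fell into separate clusters by library, cluster 6 for the control and 9 for the 8-week Zeb1 MSKO library, 7 for the control and 3 for the 9-week Zeb1 MSKO library.

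In luminal progenitor cells the 3 genes with the smallest p were Cenpa, Tacc3 and Nusap1. Cenpa was at 21.6 ± 11.7 CPM for controls and 8.77 ± 3.70 CPM for Zeb1 MSKO (SD, 2 libraries each) (log2 fold change -1.34, SE 0.49). Tacc3, which binds microtubules at spindle poles, was at 21.1, 4.39, 5.49 and 5.34 CPM, with both Zeb1 MSKO values below both controls by a narrow margin (log2 fold change -1.50, SE 0.61). Nusap1 overlapped between genotypes, since its control value at 9 weeks, 4.64 CPM, lay below its Zeb1 MSKO value of 4.95 CPM (log2 fold change -1.50, SE 0.63). Basal markers in luminal progenitor cells were highest in the 8-week Zeb1 MSKO library, where hair follicle markers (4 genes) also summed to 14.0 CPM against at most 0.163 CPM in the other libraries, and their part was not tested.

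In basal cells Plk1, the polo kinase of mitotic entry and cytokinesis, was at 0.881, 0.542, 0.584 and 3.59 CPM (log2 fold change 1.43, SE 0.88). Its Zeb1 MSKO values were the lowest and the highest of the 4, and without the 9-week Zeb1 MSKO library the log2 fold change was -0.41, against 2.22 without the 8-week Zeb1 MSKO library. Anln, a scaffold of the contractile ring, was at 3.39, 0.542, 2.12 and 2.33 CPM (-1.01, SE 0.70), and Prc1 at 10.8, 3.18, 5.05 and 7.22 CPM (-0.66, SE 0.53). For both the genotypes overlapped, and the difference in Prc1 was 0.033 without the 8-week control library.

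Whether the genotype difference itself differed between cell types was tested by an interaction term in a fit blocked by library. No gene of the 38 passed edgeR's adjusted threshold in any of the 3 comparisons, where 0% (luminal progenitor minus basal), 0.00711% (hormone-sensing minus basal) and 0% (luminal progenitor minus hormone-sensing) of all genes did. At an unadjusted p under 0.05 there were 3, 15 and 29 of 38 genes, against 3.19%, 3.66% and 4.49% of all genes tested. The median difference of log2 fold changes over the 38 genes was 1.55 for hormone-sensing minus basal cells. Without the 8-week control library it was 0.73, and without any other library 1.12 to 2.33. For luminal progenitor minus hormone-sensing cells the median was -2.23. Without the 8-week control library it was -1.19, and without any other library -3.18 to -2.14. The comparisons share libraries. Stmn1 had the smallest p between hormone-sensing and basal cells (log2 difference of fold changes 2.47, SE 0.40, edgeR adjusted p = 0.360), and DESeq2 called it (adjusted p = 0.000197), the only gene of the 38 that it called in this comparison. In this comparison edgeR called 11 of the 38 genes without the 9-week Zeb1 MSKO library (1.84% of all genes in the same direction), 2 without the 9-week control library (0.117%) and 1 without the 8-week Zeb1 MSKO library (0.503%), Stmn1 among them each time. When low-count genes were left in, it called 6 here (0.471% of all genes) and 6 between luminal progenitor and hormone-sensing cells (0.138%). Between luminal progenitor and hormone-sensing cells Birc5 differed by -3.00 (SE 0.62, edgeR adjusted p = 0.730), and DESeq2 called Birc5 (adjusted p = 0.00984) and Stmn1 (0.00659). Tpx2, which activates Aurora A on the spindle, differed by -2.99 in that comparison (SE 0.63, edgeR adjusted p = 0.730) and was at 0.375, 0.606, 0.372 and 2.15 CPM in hormone-sensing and 13.3, 2.12, 4.11 and 5.13 CPM in luminal progenitor cells. Between luminal progenitor and basal cells the smallest p was that of Plk1 (-2.25, SE 0.58, edgeR adjusted p = 1). DESeq2 called 0 of the 38 genes there. Of all genes it called 0.0101% in this comparison, 0.131% between hormone-sensing and basal cells and 0.194% between luminal progenitor and hormone-sensing cells.

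**Figure D4:**
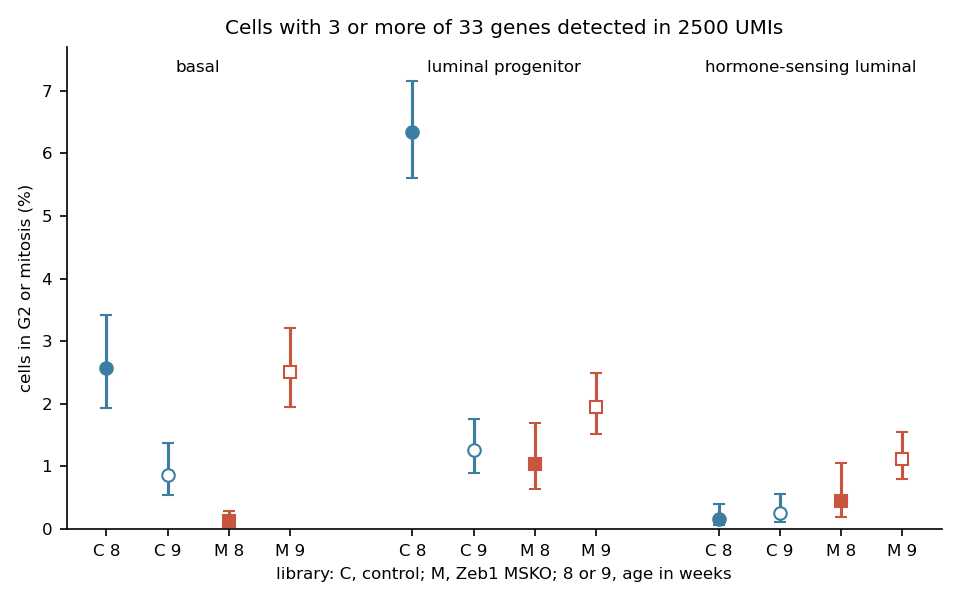
Share of cells in G2 or mitosis (percent of the gated cells after thinning to 2500 UMIs) in each library, with Wilson 95% intervals, for the 3 epithelial types. Filled symbols are 8-week and open symbols 9-week libraries. Luminal progenitor cells of the 8-week control library stand highest at 6.34%, and hormone-sensing cells of the 9-week Zeb1 MSKO library stand at 1.12% against at most 0.452% in the other libraries.

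The shares of cells in G2 or mitosis, counted as above, had the same highest library as the summed levels in each type. In luminal progenitor cells they were 6.34% (Wilson 95% interval 5.61 to 7.16), 1.04% (0.643 to 1.69), 1.26% (0.897 to 1.76) and 1.94% (1.51 to 2.49). The 8-week control library stood above the others beyond counting error. In basal cells the shares were 2.57% (1.93 to 3.43), 0.131% (0.0603 to 0.286), 0.867% (0.549 to 1.37) and 2.51% (1.96 to 3.21), with 6 cells in the 8-week Zeb1 MSKO library of 4565. In hormone-sensing cells they were 0.157% (0.0611 to 0.403), 0.452% (0.193 to 1.05), 0.258% (0.118 to 0.561) and 1.12% (0.805 to 1.55), from 4, 5, 6 and 35 cells. The intervals of the first 3 hormone-sensing libraries overlap. Intervals cover counting error only.

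By genotype, the luminal progenitor share was 3.80% ± 3.60 for the controls and 1.49% ± 0.635 for Zeb1 MSKO (SD, n = 2 libraries each), a difference of -2.31 percentage points that became 0.235 without the 8-week control library. The basal share was 1.72% ± 1.21 and 1.32% ± 1.68, a difference of -0.402 that became 0.451 without the 8-week control library and 0.785 without the 8-week Zeb1 MSKO library. Both differences were smaller than the spread between libraries. The hormone-sensing share was 0.207% ± 0.0711 and 0.785% ± 0.472, a difference of 0.578 that kept its sign when any of the libraries was left out (0.244 to 0.911). No test was made of a share that is built from the listed genes.

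Depth and background bear on these shares. Without thinning they were 11.1%, 2.28%, 1.94% and 3.72% in luminal progenitor, 5.15%, 0.570%, 2.07% and 4.60% in basal, and 2.24%, 3.70%, 1.89% and 6.33% in hormone-sensing cells. Counted cells were deeper than the others before thinning, with a median of 18767 against 8152 UMIs in luminal progenitor cells of the 8-week control library and 23106 against 17139 UMIs in hormone-sensing cells of the 9-week Zeb1 MSKO library. In fibroblasts 0 of 354, 2 of 496, 0 of 22 and 0 of 30 cells were counted, at medians of 6717 to 8158.5 UMIs in uncounted cells. At 8 weeks the fibroblast share was 0%, which allows up to 0.847%, in control and 0.403% (0.111 to 1.46) in Zeb1 MSKO. The 9-week fibroblasts allow up to 13.6% and 10% and set no useful limit. The intervals of all 4 hormone-sensing shares overlap that of the 8-week Zeb1 MSKO fibroblasts. So do those of the 8-week Zeb1 MSKO and 9-week control libraries in basal and luminal progenitor cells. The 2 counted fibroblasts also held at least 3 S phase genes after thinning, so they are not known to be false counts. The overlap therefore cannot show whether these shares differ from background. Called doublets had been removed, and before removal they made up 9 of 59 counted hormone-sensing cells (15.3%, against 1.51% of the others) but 3.04% of counted luminal progenitor cells (against 3.01%). Exactly 3 genes, the lower limit, were found in 27 basal, 52 luminal progenitor and 17 hormone-sensing cells, and exactly 2 in 73, 98 and 67.

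Among all cells counted in G2 or mitosis the cell types took different parts in each library. Of 310 such cells in the 8-week control library 241 were luminal progenitor cells (77.7%), whereas of 197 in the 8-week Zeb1 MSKO library 113 were hair follicle keratinocytes (57.4%). In the 9-week Zeb1 MSKO library 61 of 174 were basal and 61 luminal progenitor cells (35.1% each), and 35 were hormone-sensing (20.1%). Hair follicle keratinocytes of the 8-week Zeb1 MSKO library had a share of 49.3% (113 of 229 cells, 42.9 to 55.8), above every other type in that library. Leukocytes had shares from 6.90% to 19.0% of at most 58 cells.

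**Figure D5:**
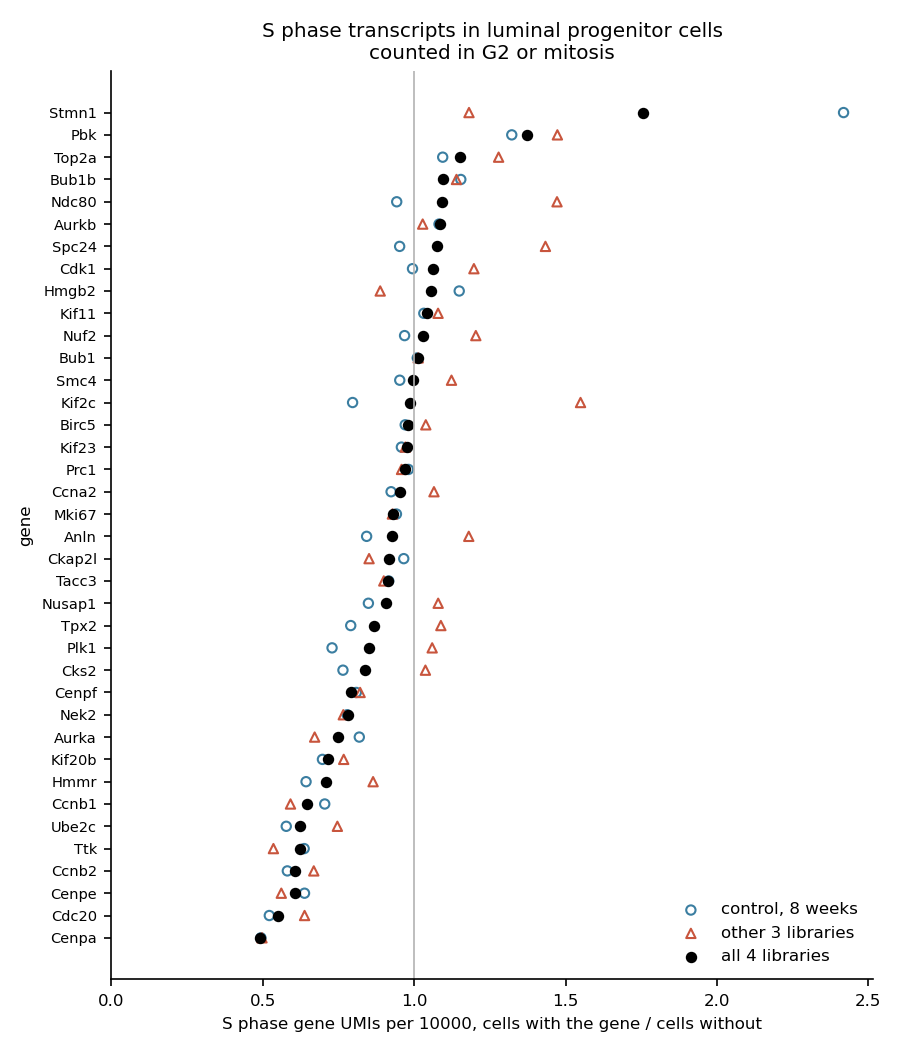
Ratio of S phase transcripts (UMIs of 30 S phase genes per 10000 UMIs) between cells with and cells without each of the 38 genes detected, among luminal progenitor cells counted in G2 or mitosis, for all 4 libraries (filled), the 8-week control library (circles) and the other 3 libraries together (triangles). The ratio is lowest for Cenpa, at 0.489, and the vertical line marks equality.

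Within cells in G2 or mitosis the genes differed in how they went with S phase transcripts (30 genes of DNA replication). Luminal progenitor cells with Cenpa detected (111 cells) held 16.2 S phase UMIs per 10000, and those without it (232 cells) 33.0, a ratio of 0.489. The ratio was 0.551 for Cdc20 (97 cells with it), 0.605 for Cenpe, a kinesin of the kinetochore, 0.606 for Ccnb2, 0.624 for Ube2c and 0.647 for Ccnb1. It was 1.15 for Top2a and 1.37 for Pbk, where 146 cells with it held 31.5 and 191 cells without it 23.0. The highest ratio, 1.76 for Stmn1, rests on only 9 cells without it. The gene itself was not used to choose the cells. In the 8-week control library, which gave most of the cells, and in the other libraries together the ratios were 0.494 and 0.497 for Cenpa, 0.522 and 0.638 for Cdc20, 1.09 and 1.28 for Top2a and 1.32 and 1.47 for Pbk. The ratio lay on the same side of 1 in both for 24 of the 38 genes and on opposite sides for 14, among them Kif2c (0.797 and 1.55) and Ndc80 (0.942 and 1.47). Some genes at the low end also went together across cells. Pearson r of log levels over the 351 counted luminal progenitor cells was 0.73 for Cdc20 and Cenpa, 0.71 for Ccnb2 and Cenpa and 0.65 for Ccnb2 and Cdc20. It was -0.14 for Cenpa and Pbk, and the median over all 703 pairs was 0.21. Over 130 basal cells these values were 0.62, 0.64, 0.62 and -0.44, against a median of 0.28. In luminal progenitor cells the pairs named are those with the highest r and the one with the lowest. Ttk, also at the low end (ratio 0.622, from 8 cells with it), did not share the pattern. Its r in luminal progenitor cells was 0.105 with Cenpa, 0.105 with Cdc20 and 0.049 with Ccnb2. Cells share libraries and differ in depth, and the cells were chosen by these genes, so the values are a description.

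The genes whose pattern was most like that of the 38 were ranked by their smallest log2 ratio between counted and uncounted cells over the 8 combinations of type and library with at least 10 counted cells. Of 7583 genes at 10 CPM or more in counted cells, 23 of the first 50 and 33 of the first 100 belonged to the 38. For the ranks the cells were counted by 33 of the 38 genes themselves. High ranks of those genes were therefore largely set by the choice of cells and are no separate support. The highest others were the replication-dependent histone gene Hist1h2ap (smallest log2 ratio 5.74) and Cdca3, a trigger of mitotic entry (5.22), followed by Ska1 and Racgap1, which act at the kinetochore and at the central spindle. Aurka ranked 212th and Ttk, the checkpoint kinase with the lowest mean of the 38, ranked 1935th, and 1 combination set each of these ranks. Unlike the ranks, the ratios that follow had the cells chosen by the other genes alone. The ratio of Aurka was 2.50 in hormone-sensing cells of the 9-week Zeb1 MSKO library and at least 19.5 in the other 7. Ttk had 0 UMIs in the 16 counted luminal progenitor cells of the 8-week Zeb1 MSKO library, where uncounted cells held 1 UMI, and its other ratios were 22.0 to 140.

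Other regulators of G2 and mitosis (51 genes) and S phase genes (30 genes) were examined the same way. Between luminal progenitor and basal cells 15 of 51 regulators were higher and 8 lower, and of the S phase genes 6 of 30 were higher and 5 lower, where 30.3% and 32.9% of all genes were. Between hormone-sensing and basal cells 7 of 48 tested regulators were higher and 24 lower, and 0 of 30 S phase genes were higher and 19 lower, where 32.7% and 34.8% of all genes were. Between luminal progenitor and hormone-sensing cells 28 of 50 regulators were higher and 3 lower, and 20 of 30 S phase genes were higher and 0 lower, where 28.1% and 28.6% of all genes were. Between genotypes edgeR called 0 genes of either list in any type. Summed S phase levels were 947, 467, 324 and 559 CPM in luminal progenitor, 650, 485, 420 and 592 CPM in basal and 301, 273, 241 and 440 CPM in hormone-sensing cells. The highest library was the same as for the 38 genes in each type.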

How the data were processed

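The authors deposited 1 matrix of UMI counts for the 4 libraries, unnormalized, with genes against barcodes. It was made with Cell Ranger 2.1.0 and the mm10 build, per the submitters' processing notes, and each barcode ends in its library's number. No source used here tells whether reads were subsampled when the libraries were joined. The 38 genes and the other lists were chosen with earlier results of these data known.

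Barcodes under 500 genes or above 10% mitochondrial counts were removed (414). In each library doublets were called from the share of simulated doublets among a cell's nearest neighbours, at an assumed rate of 8%, which removed 2059 cells and recovered 56.6% to 66.9% of the simulated doublets, so some remain. Cell types were gated on summed markers per 10000 UMIs, with limits set after the data were seen (basal at least 30, luminal progenitor at least 60, hormone-sensing at least 25, with upper limits on the markers of the other types), and 1400 cells stayed ungated. Counts were summed per library and type and tested with edgeR 4.0.16 (quasi-likelihood, TMM, its default filter on low counts, Benjamini-Hochberg adjustment over all genes tested, threshold 0.05), with DESeq2 1.42.0 as an alternative. Genotype was tested on 2 against 2 libraries. Cell types and interactions were tested with the library as a block. A CPM value is a UMI count scaled to the total of its type and library, and log2 ratios within an age use a prior count of 2. Shares were taken after thinning each cell to 2500 UMIs, a depth every kept cell reached, with Wilson 95% intervals and a floor of 3 cells. The edgeR procedure was tried on simulated counts for a genotype and a cell type comparison, with the same spread set for every gene. The interaction fit was not simulated. Gene positions are from GENCODE vM21 and promoter windows from RefSeq (GRCm38.p6).

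Printed in every library were the gene of each role group with the highest mean, Mki67, Cdk1 and Ccnb1, and in each test the called genes (at most the 10 with the smallest p) or, where none was called, the 3 with the smallest p. Others are printed as stated. The replicate numbers stand for the ages, and the 9 against 8 week differences of the control and Zeb1 MSKO libraries correlated across genes (Pearson r 0.336 in basal, 0.294 in luminal progenitor and 0.251 in hormone-sensing cells; genes are not independent replicates), so age as a block was an alternative. The other alternatives were no filter on low counts, library totals without TMM, keeping called doublets, Leiden clusters in place of gates, other limits for a cell in G2 or mitosis, and leaving out each library.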

Additional observations from a re-analysis of the deposited data

Results flagged for a closer look

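In basal cells the median log2 ratio of Zeb1 MSKO to control over the 38 genes was -2.17 at 8 weeks and 1.22 at 9 weeks. All 38 genes were on the lower side at 8 weeks and all 38 on the higher side at 9 weeks. In luminal progenitor cells the medians were -2.37 at 8 weeks and 0.43 at 9 weeks, with 0 and 35 of the 38 genes higher in Zeb1 MSKO. Each age has 1 library per genotype, so the difference between the ages was not tested, and the age cannot be told apart from the preparation of the libraries.

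Cells that entered no gate were outside the comparisons, and some of them were counted in G2 or mitosis by the rule above. In the Zeb1 MSKO libraries these were 6.15% of the ungated cells at 8 weeks (48 of 780, Wilson 95% interval 4.67 to 8.06) and 7.83% at 9 weeks (13 of 166, 4.63 to 12.9). The control libraries had 2.5% (9 of 360, 1.32 to 4.68) and 1.06% (1 of 94, 0.188 to 5.78), lower values whose intervals overlap those of Zeb1 MSKO at both ages. At 8 weeks the Zeb1 MSKO library also held 229 of the 232 gated hair follicle keratinocytes, and their part in its ungated cells was not tested.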

How the results depend on the processing

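Replicate 1 is the age of 8 weeks and replicate 2 the age of 9 weeks. With age as a replicate block, 0 of the 38 genes were called between genotypes in basal, 0 in luminal progenitor and 0 in hormone-sensing cells, as without it, so this block changed no call. Without a filter on low counts edgeR called 9 genes lower between genotypes in luminal progenitor cells (0.234% of all genes), and 6 genes in the interaction of hormone-sensing with basal cells (0.471% in that direction) and 6 in that of luminal progenitor with hormone-sensing cells (0.138%). DESeq2 called 2 between genotypes in hormone-sensing cells, and 1 and 2 in these interactions. Between luminal progenitor and basal cells 0 were called with no replicate block. When each library was left out in turn, 8 to 20 genes were called between luminal progenitor and basal cells, 21 to 34 between hormone-sensing and basal cells, 29 to 35 between luminal progenitor and hormone-sensing cells, and 0 to 11 in the interaction of hormone-sensing with basal cells. Of all genes tested these fits called 53.0% to 60.8%, 58.1% to 65.6%, 45.3% to 52.4% and 0.0825% to 2.13%.

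The difference in the share of cells in G2 or mitosis (Zeb1 MSKO minus control, percentage points) ranged from -1.59 to 0.785 in basal, from -4.85 to 0.235 in luminal progenitor and from 0.244 to 0.911 in hormone-sensing cells over the same libraries. It changed sign in basal cells without the 8-week control library (0.451) or the 8-week Zeb1 MSKO library (0.785), and in luminal progenitor cells without the 8-week control library (0.235). In hormone-sensing cells it was 0.578 in the main analysis. Under looser limits it was 0.954 when 2 genes sufficed, 1.71 when all 38 genes counted and 2.95 without thinning. In basal cells the log2 fold change of Plk1 ranged from -0.41 (without the 9-week Zeb1 MSKO library) to 2.22 (without the 8-week one), and that of Prc1 from -1.31 (without the 9-week Zeb1 MSKO library) to 0.033 (without the 8-week control library). For these changes the cause was not tested. Over all named genes, Plk1 and Prc1 included, 433 values kept the direction and the side of the threshold, and 2 changed direction. A further 17 passed the threshold only in the alternative and 18 only in the main analysis. With 2 libraries per genotype, and 4 to 35 counted hormone-sensing cells per library, the depth limits what can be seen of small differences in that type.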
